A study of Mus musculus with 15 samples.

Results

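The Toll-like receptors Tlr1, Tlr2, Tlr3, Tlr4, Tlr6, Tlr7, Tlr8, Tlr9 and Tlr13 and the LPS co-receptor Cd14 were followed across 4 treatment groups of cultured mouse microglia. All probes annotated to 1 of these 10 genes, of 19057 annotated genes in all, were taken, which gave 15 of the 45281 probes of the Illumina bead array. Of the 15 probes, 9 probes of 7 genes passed the filter on dim probes (a detection p-value below 0.01 on 3 or more of the 15 arrays). They were tested as part of a fit over all 15434 probes that passed. The 6 probes that failed include every probe of Tlr3, Tlr8 and Tlr9.

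The cells were C57BL/6 microglia made in culture from embryonic stem cells, which stand in for the macrophages that reside in brain tissue, and were grown in medium with N2 supplement. For 24 h they were exposed to interleukin-4 (IL-4, 100 U/ml, 3 arrays), to lipopolysaccharide with interferon-γ (LPS/IFN-γ, 500 and 20 ng/ml, 3 arrays) or to TGF-β (transforming growth factor-β, at 50 ng/ml, 3 arrays), and 6 arrays held cells left untreated. The study set pro- against anti-inflammatory activation states. The labels do not say whether arrays of a group came from separate cultures, so the p-values cover only the variation from array to array, part or all of which may be technical. Precision is limited by how many arrays a group has. In RNA from whole cultures, fewer expressing cells and less RNA per cell cannot be told apart.

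Toll-like receptors are membrane receptors that recognise conserved microbial molecules with a leucine-rich ectodomain and signal through a cytoplasmic TIR domain, which recruits the adaptors Myd88 or Ticam1 (TRIF) and leads to activation of NF-κB and interferon regulatory factors. Tlr2 pairs with Tlr1 or Tlr6 at the cell surface to sense bacterial lipopeptides, Tlr4 with Ly96 (MD-2) senses LPS handed over by Cd14, and Tlr3, Tlr7, Tlr8, Tlr9 and Tlr13 act in endosomes, where they sense nucleic acids. Microglia are brain cells well known for expressing this receptor family.

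Between 13601 and 14789 probes were above background per array, and the median raw signal was 130.0 to 153.9. The LPS/IFN-γ array of the third bead chip stood apart. On it 146 genes lay at least 2-fold from the mean of its fellow LPS/IFN-γ arrays, and the same measure gave 1 to 33 genes on each of the other 14 arrays. Calls of the 7 tested genes that changed without this array are given with and without it. Other LPS/IFN-γ values include it and can be smaller or larger without it. Examples are Jun (-0.70, and -0.50 without it) and Tlr2 (1.75, and 1.90 without it). Every treatment had 1 array on each of the 3 bead chips, and the untreated arrays were spread over the chips as 1, 3 and 2. Of 14 microglia and macrophage markers on the array, 8 were above background on all 15 arrays, with each marker judged on its probe with the highest mean. P2ry12, C1qa and Gpr34 were above background on 0 arrays, and Cx3cr1 and Tmem119 were so on the 3 TGF-β arrays alone. Of the markers of other cell types, the astrocyte transporter Slc1a2 and the dendritic cell integrin Itgax were above background on 15 arrays, Syp on 10, Aldh1l1 on 9 and Pou5f1 on 4. On the probe with the highest mean, none of the other markers of embryonic stem cells, neurons, astrocytes or oligodendrocytes was above background on any array. The same held for the other markers of fibroblasts, B cells, T cells, dendritic cells and neutrophils.

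The receptors moved in different directions under each stimulus. With IL-4, Tlr6 and Tlr7 rose and Tlr2 and Cd14 fell, but the Tlr6 and Tlr7 calls held in only 20 and 14 of 30 alternative analyses. With LPS/IFN-γ, Tlr2 and Tlr6 rose and Tlr13 fell, and the Tlr6 call held in 21 of the 30. With TGF-β, Tlr2 and Tlr7 rose and Tlr1, Tlr4 and Cd14 fell. A gene was called at an adjusted p under 0.05 (limma, two-sided, Benjamini-Hochberg over all probes tested), and the probe with the highest mean stood for each gene. In the IL-4 comparison, 2 of the 7 genes were called higher and 2 lower than in untreated cells, against 4.89% and 5.27% of all 8561 genes tested. In the LPS/IFN-γ comparison, 2 were higher and 1 was lower, against 20.9% and 33.2% of all genes, so calls were no more frequent than over all genes. In the TGF-β comparison, 2 were higher and 3 were lower, against 18.8% and 17.9% of all genes.

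On the probe that stood for each gene, the IL-4 arrays of all 7 genes did not overlap the untreated arrays, which held for 20.1% of all genes. The same was true of 2 of 7 genes with LPS/IFN-γ (46.9% of all genes) and of 5 of 7 with TGF-β (38.7% of all genes). The median log2 difference of the 7 genes from untreated cells was 0.30 with IL-4 (-0.02 over all genes), -0.10 with LPS/IFN-γ (-0.08 over all genes) and -0.18 with TGF-β (-0.00 over all genes). The count of 4 genes called with IL-4 was 7 without the third LPS/IFN-γ array, when Tlr1, Tlr4 and Tlr13 were called too. It was 2 (Tlr2 and Cd14) without any 1 of the 3 IL-4 arrays or without untreated array 1, 2, 4 or 6. Calls with IL-4 over all 15434 probes moved the same way, from 1453 to 1980 without the third LPS/IFN-γ array. They were 705 to 1061 without 1 of the IL-4 arrays and 1050 to 1366 without untreated array 1, 2, 4 or 6.

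**Figure D1:**
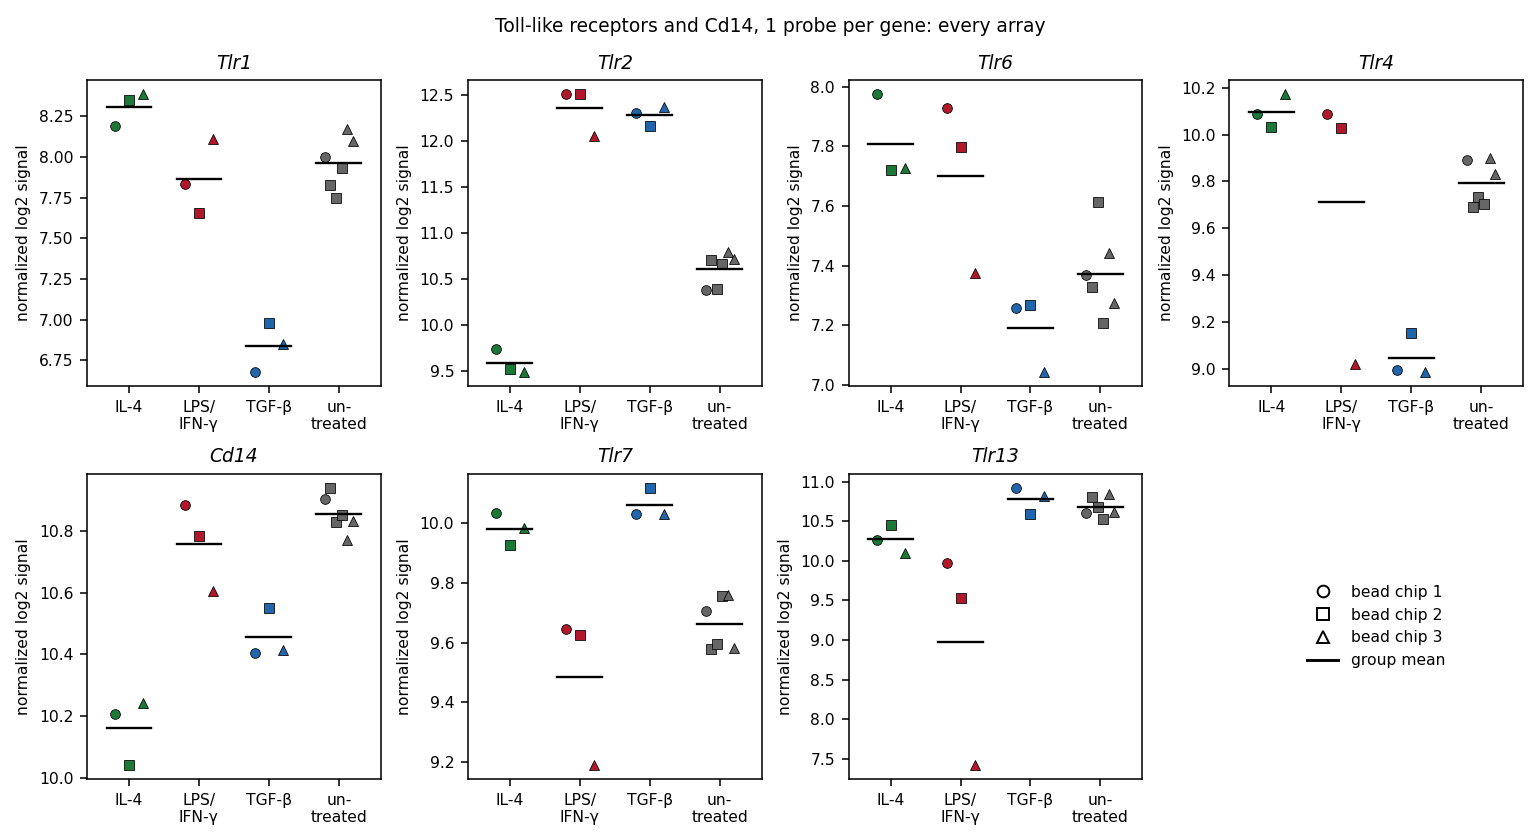
Normalized log2 signal of the probe that stood for each tested gene on every array (vertical axis, its range set per panel), by treatment, with the marker shape giving the bead chip and the line the group mean. Tlr2 lay between 9.48 and 9.74 on the IL-4 arrays, between 12.05 and 12.51 on the LPS/IFN-γ arrays, between 12.17 and 12.37 on the TGF-β arrays and between 10.38 and 10.79 on the untreated arrays, and for Tlr4 and Tlr13 the LPS/IFN-γ array of chip 3 lay far below the other arrays of its group.

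Tlr2, the subunit shared by the lipopeptide receptors, fell with IL-4 and rose with both LPS/IFN-γ and TGF-β. Its log2 signal was 9.74, 9.52 and 9.48 on the IL-4 arrays, 12.51, 12.51 and 12.05 on the LPS/IFN-γ arrays, 12.30, 12.17 and 12.37 on the TGF-β arrays, and 10.38 at the lowest, 10.69 at the median and 10.79 at the highest on the untreated arrays. Every IL-4 array was below, and every LPS/IFN-γ and TGF-β array above, all untreated arrays. The log2 difference from untreated was -1.03 ± 0.12 (SE) with IL-4, 0.490 of the untreated signal on the linear scale (adjusted p = 8.60e-05). It was 1.75 ± 0.12 with LPS/IFN-γ, a 3.37-fold rise (adjusted p = 1.62e-08), and 1.67 ± 0.12 with TGF-β, a 3.19-fold rise (adjusted p = 1.25e-07).

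Within single chips, the Tlr2 differences had the same sign throughout. The IL-4 array minus the untreated arrays of its own chip was -0.64, -1.07 and -1.27 (log2). LPS/IFN-γ minus untreated within chips was 2.13, 1.93 and 1.30, and TGF-β minus untreated was 1.92, 1.58 and 1.62. The order of Tlr2 levels was therefore LPS/IFN-γ, TGF-β, untreated and IL-4 from high to low, and of the neighbours in this order LPS/IFN-γ and TGF-β did not differ beyond their spread. Their log2 difference was 0.08 with a 95% confidence interval of -0.22 to 0.38 (adjusted p = 0.675). LPS/IFN-γ exceeded IL-4 by 2.78 ± 0.14, a 6.87-fold difference (adjusted p = 4.58e-10), and the difference of IL-4 from TGF-β was -2.70 ± 0.14 (adjusted p = 2.37e-09).

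Tlr1, which pairs with Tlr2 for triacylated lipopeptides, did not follow its partner and fell with TGF-β. The log2 signal of Tlr1 was 8.19, 8.35 and 8.39 on the IL-4 arrays, 7.83, 7.65 and 8.11 on the LPS/IFN-γ arrays, 6.68, 6.98 and 6.85 on the TGF-β arrays, and 7.74, 7.97 and 8.17 at the lowest, median and highest of the untreated arrays. The TGF-β arrays lay below every other array, the IL-4 arrays lay just above all untreated arrays, and the LPS/IFN-γ arrays overlapped the untreated arrays. TGF-β minus untreated was -1.13 ± 0.11, 0.457 of the untreated signal (adjusted p = 3.42e-06), and -1.33, -0.85 and -1.29 within the chips. IL-4 minus untreated was 0.34 ± 0.11 and missed the threshold (adjusted p = 0.0748), although no array overlapped and the 95% confidence interval was 0.10 to 0.59. It passed with the bead chip as a fixed block (0.34, adjusted p = 0.0459), with cyclic loess, without background subtraction, with array weights, with only these 2 groups fitted, in the authors' deposited table (adjusted p 0.00718 to 0.0499) and without the third LPS/IFN-γ array (adjusted p = 0.0400). LPS/IFN-γ minus untreated was -0.10 with a 95% confidence interval of -0.34 to 0.14 (adjusted p = 0.493).

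Between treatments, Tlr1 was lower in LPS/IFN-γ than in IL-4 cells (-0.44 ± 0.13, adjusted p = 0.0126). This call was lost without the second LPS/IFN-γ array, where the difference was -0.34 (adjusted p = 0.0638), and under median scaling (adjusted p = 0.0505). Against TGF-β cells, Tlr1 was higher by 1.03 ± 0.13 in LPS/IFN-γ cells (adjusted p = 1.13e-05) and by 1.47 ± 0.13 in IL-4 cells (adjusted p = 1.14e-06). From high to low, the Tlr1 levels ran IL-4, untreated, LPS/IFN-γ and TGF-β, and of these neighbours IL-4 and untreated did not overlap but missed the adjusted threshold, and LPS/IFN-γ and untreated overlapped.

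Tlr6, the partner of Tlr2 for diacylated lipopeptides, was slightly higher with IL-4 and with LPS/IFN-γ. It gave a log2 signal of 7.98, 7.72 and 7.73 on the IL-4 arrays, 7.93, 7.80 and 7.38 on the LPS/IFN-γ arrays, 7.26, 7.27 and 7.04 on the TGF-β arrays, and 7.21, 7.35 and 7.61 at the lowest, median and highest of the untreated arrays. The IL-4 arrays lay above all untreated arrays, the third LPS/IFN-γ array and 2 of the TGF-β arrays fell within the untreated range, and the third TGF-β array lay below it. IL-4 minus untreated was 0.43 ± 0.12 (adjusted p = 0.0334), and 0.61, 0.34 and 0.37 within the chips. LPS/IFN-γ minus untreated was 0.33 ± 0.12 (adjusted p = 0.0325), and 0.56, 0.42 and 0.02 within the chips. Neither call was stable. The IL-4 call was lost without any 1 of the 3 IL-4 arrays or without untreated array 1, 2, 4 or 6, where the differences were 0.35 to 0.48 and the adjusted p 0.0503 to 0.164. The LPS/IFN-γ call was lost without LPS/IFN-γ array 1 (0.21, adjusted p = 0.189), without LPS/IFN-γ array 2 (0.28, adjusted p = 0.115) and without untreated array 2, 4 or 6 (0.32, 0.30 and 0.31). Without the third LPS/IFN-γ array the difference was 0.49 (adjusted p = 0.00255). Both calls were also lost under median scaling (0.32 with IL-4, 0.24 with LPS/IFN-γ) and without the filter on dim probes.

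TGF-β minus untreated for Tlr6 was -0.18 with a 95% confidence interval of -0.44 to 0.07 (adjusted p = 0.263). Tlr6 was higher in LPS/IFN-γ than in TGF-β cells by 0.51 ± 0.14 (adjusted p = 0.00620) and in IL-4 than in TGF-β cells by 0.62 ± 0.14 (adjusted p = 0.00401). LPS/IFN-γ minus IL-4 was -0.11 with an interval of -0.40 to 0.19 (adjusted p = 0.561). The Tlr6 levels ran IL-4, LPS/IFN-γ, untreated and TGF-β from high to low, and neither IL-4 and LPS/IFN-γ nor TGF-β and untreated could be separated. Tlr1 and Tlr6 are close relatives, and whether a probe of 1 gene also binds RNA of the other was not tested.

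The start-site sequences of Tlr2 and of 1 Tlr6 window are shown with the letters of known response elements. RefSeq windows of 300 bases (250 before to 50 after a start site, GRCm38.p6, read 5′ to 3′ on the gene's strand) were matched for 7 of the 10 genes, with 9 windows in all and none matched for Tlr4, Tlr7 and Cd14. Both strands were searched for 4 motifs: the ISRE core of interferon response elements (GAAA, 2 bases of any kind, GAAA), a strict kappaB motif of NF-κB (GGGA, 1 base of any kind, TTTCC), the PU.1 core (GAGGAA) and the STAT6 motif. Of 32851 mouse promoter windows of the same length, 3.44% held the ISRE core, 0.411% the strict kappaB motif, 28.3% the PU.1 core and 6.95% the STAT6 motif. The Tlr2 window at chr3:83841559-83841858 (minus strand, 62.0% G and C) held none of these 4 as spelled. A looser kappaB consensus, added after the data were seen, did match the Tlr2 window, at -173 and -172 (overlapping) and at -8 from the start site. It was found in 8.46% of all windows and, among the members, in those of Tlr2 and Tlr3. A Tlr6 window at chr5:64959117-64959416 (minus strand) held 2 overlapping ISRE core matches starting at -116 and -110 from the start site, which are in capitals, while the looser kappaB matches are not. The other Tlr6 window, at chr5:64959999-64960298, held none of the 4 motifs. On these 4 motifs, Tlr6 therefore differed from Tlr2 at only 1 of its start sites. The looser kappaB consensus, which matched the Tlr2 window, matched neither Tlr6 window. A match is a description of the letters, and no match says only that these letters are absent from the window.
Tlr2: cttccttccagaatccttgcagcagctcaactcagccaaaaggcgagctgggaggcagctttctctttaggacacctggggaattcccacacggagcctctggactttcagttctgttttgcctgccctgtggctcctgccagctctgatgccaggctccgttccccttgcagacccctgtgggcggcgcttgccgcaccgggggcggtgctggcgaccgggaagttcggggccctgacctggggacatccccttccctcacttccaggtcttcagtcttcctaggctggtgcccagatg
Tlr6: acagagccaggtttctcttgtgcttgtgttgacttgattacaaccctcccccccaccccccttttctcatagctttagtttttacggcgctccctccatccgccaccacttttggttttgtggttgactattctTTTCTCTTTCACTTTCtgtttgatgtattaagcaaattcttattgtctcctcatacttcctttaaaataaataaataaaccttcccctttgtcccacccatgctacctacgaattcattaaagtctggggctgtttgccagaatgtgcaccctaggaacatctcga

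Of the other windows, 1 of those of Tlr1 held a PU.1 core at -23. Tlr3 held the strict kappaB motif at -211, Tlr8 overlapping PU.1 and STAT6 matches at -77, and Tlr9 held PU.1 cores at -112 and 13.

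Tlr4, the signalling receptor for LPS, fell with TGF-β. On the probe with the highest mean, its log2 signal was 10.09, 10.03 and 10.17 on the IL-4 arrays, 10.09, 10.03 and 9.02 on the LPS/IFN-γ arrays, 8.996, 9.15 and 8.99 on the TGF-β arrays, and 9.69, 9.78 and 9.90 at the lowest, median and highest of the untreated arrays. The TGF-β arrays lay below and the IL-4 arrays above all untreated arrays. Of the LPS/IFN-γ arrays, 2 lay above every untreated array and 1, the third, lay near the TGF-β level. TGF-β minus untreated was -0.75 ± 0.17, 0.596 of the untreated signal (adjusted p = 0.00356), and -0.90, -0.56 and -0.88 within the chips. The other probe of Tlr4 that passed gave -0.80 ± 0.20 (adjusted p = 0.00633).

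The third LPS/IFN-γ array set the result of Tlr4 with LPS/IFN-γ. Over all 3 arrays the log2 difference from untreated was -0.08 ± 0.17 (adjusted p = 0.720), and within chips it was 0.19, 0.32 and -0.85. Without that array the difference turned to 0.27 ± 0.08 and passed the threshold (adjusted p = 0.0189). The other probe showed the same arrangement, with a log2 signal of 9.79, 9.60 and 8.49 on the LPS/IFN-γ arrays against 9.34 at the lowest, 9.45 at the median and 9.51 at the highest of the untreated arrays. The spread of that group also entered the IL-4 test, in which Tlr4 was 0.30 ± 0.17 above untreated (adjusted p = 0.293), and 0.30 ± 0.07 without the third LPS/IFN-γ array (adjusted p = 0.0142). Why this array differed was not tested.

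Tlr4 was higher in LPS/IFN-γ than in TGF-β cells by 0.67 ± 0.20 (adjusted p = 0.0112), and by 1.01 without the third LPS/IFN-γ array. The call was lost without LPS/IFN-γ array 1 (0.48, adjusted p = 0.0633) or 2 (0.51, adjusted p = 0.0597), and with only these 2 groups fitted (adjusted p = 0.0802). IL-4 exceeded TGF-β by 1.05 ± 0.20 (adjusted p = 0.00117). LPS/IFN-γ minus IL-4 was -0.38 with a 95% confidence interval of -0.81 to 0.04 (adjusted p = 0.130). It passed the threshold without LPS/IFN-γ array 1 (-0.57, adjusted p = 0.0327) or 2 (-0.54, adjusted p = 0.0491), and was -0.04 without the third (adjusted p = 0.773). In mean level Tlr4 ran IL-4, untreated, LPS/IFN-γ and TGF-β from high to low, and of these neighbours only LPS/IFN-γ and TGF-β passed the test.

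Cd14, the anchored co-receptor that hands LPS to Tlr4, fell with IL-4 and, less far, with TGF-β. It gave a log2 signal of 10.21, 10.04 and 10.24 on the IL-4 arrays, 10.88, 10.78 and 10.61 on the LPS/IFN-γ arrays, 10.41, 10.55 and 10.41 on the TGF-β arrays, and 10.77, 10.84 and 10.94 at the lowest, median and highest of the untreated arrays. All IL-4 and TGF-β arrays lay below all untreated arrays, and the LPS/IFN-γ arrays overlapped them. IL-4 minus untreated was -0.69 ± 0.08, 0.619 of the untreated signal (adjusted p = 5.07e-05), and -0.70, -0.83 and -0.56 within the chips. TGF-β minus untreated was -0.40 ± 0.08 (adjusted p = 0.00105), and -0.50, -0.32 and -0.39 within the chips. The difference with LPS/IFN-γ was -0.10 with a 95% confidence interval of -0.26 to 0.07 (adjusted p = 0.309).

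From high to low, the Cd14 levels ran untreated, LPS/IFN-γ, TGF-β and IL-4, and of the neighbours LPS/IFN-γ and untreated did not differ beyond their spread. LPS/IFN-γ exceeded IL-4 by 0.59 ± 0.09 (adjusted p = 6.58e-05). LPS/IFN-γ exceeded TGF-β by 0.30 ± 0.09 (adjusted p = 0.0110), which was lost without LPS/IFN-γ array 1 (0.24, adjusted p = 0.0532) and with only these 2 groups fitted (adjusted p = 0.0731). IL-4 minus TGF-β was -0.29 ± 0.09 (adjusted p = 0.0245), which was lost without IL-4 array 2 (-0.23, adjusted p = 0.106) or TGF-β array 2 (-0.25, adjusted p = 0.0940). It was also lost under median scaling (-0.16, adjusted p = 0.615) and with only these 2 groups fitted (adjusted p = 0.0675).

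**Figure D2:**
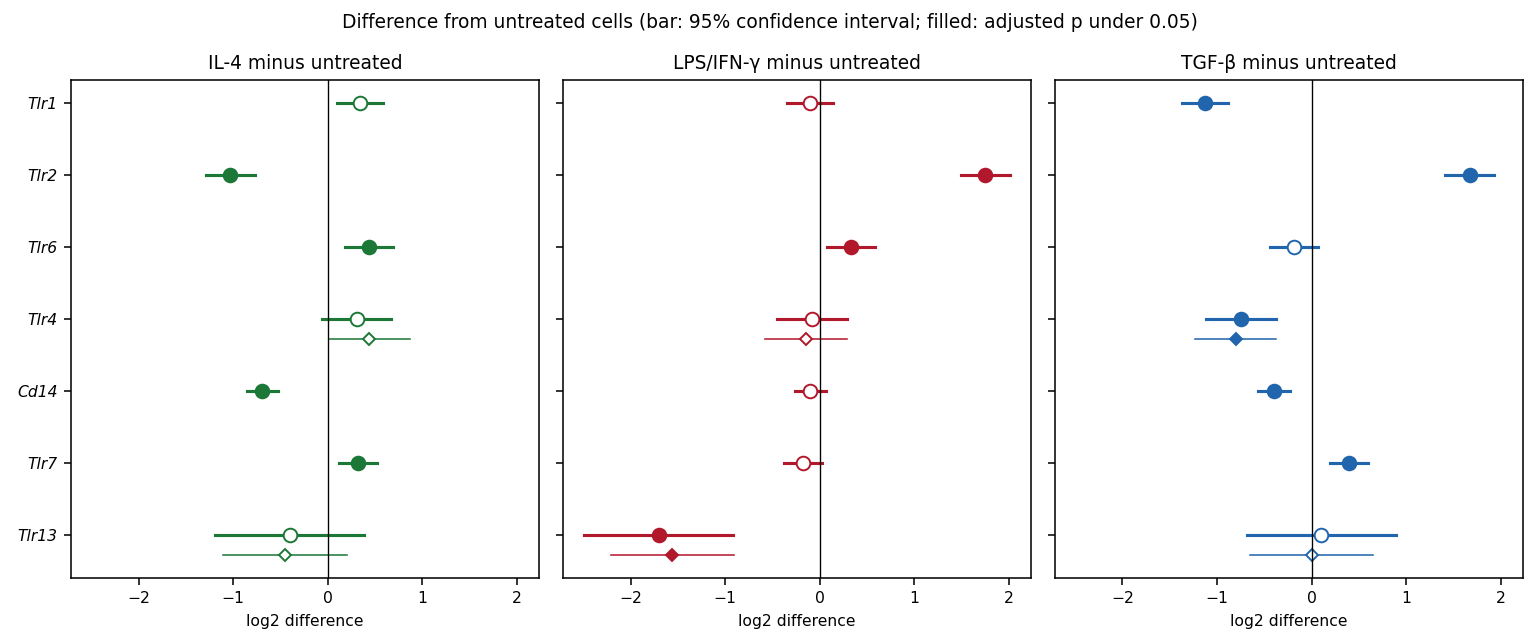
Log2 difference of each tested gene from untreated cells (horizontal axis) with IL-4, LPS/IFN-γ and TGF-β, with bars for the 95% confidence interval, filled symbols for an adjusted p under 0.05, large circles for the probe that stood for the gene and small diamonds for another probe that passed. Tlr2 lay at -1.03, 1.75 and 1.67 in the 3 panels, and the bars of Tlr4 and Tlr13 were the widest.

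Tlr7, the endosomal receptor for single-stranded RNA, was higher with TGF-β and with IL-4. The log2 signal of Tlr7 was 10.03, 9.93 and 9.98 on the IL-4 arrays, 9.64, 9.62 and 9.19 on the LPS/IFN-γ arrays, 10.03, 10.12 and 10.03 on the TGF-β arrays, and 9.58, 9.65 and 9.76 at the lowest, median and highest of the untreated arrays. Each IL-4 and TGF-β array lay above all untreated arrays, and of the LPS/IFN-γ arrays the third lay below them. TGF-β minus untreated was 0.40 ± 0.09, a 1.32-fold rise (adjusted p = 0.00446), and 0.33, 0.48 and 0.36 within the chips. With arrays scaled by their median alone this difference was 0.16 and no longer passed (adjusted p = 0.530), in a setting that moved the median of all probes to -0.20.

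IL-4 minus untreated for Tlr7 was 0.32 ± 0.09 (adjusted p = 0.0469), and 0.33, 0.29 and 0.31 within the chips. This call was lost when any 1 array of the IL-4, TGF-β or untreated groups was left out, with differences of 0.29 to 0.35 and adjusted p of 0.0527 to 0.161, and with the bead chip as a fixed block (0.31, adjusted p = 0.0581), under median scaling (0.21) and without the filter on dim probes. The LPS/IFN-γ difference was -0.18 with a 95% confidence interval of -0.38 to 0.02 (adjusted p = 0.132), and -0.03 without the third LPS/IFN-γ array (adjusted p = 0.793). Tlr7 was lower in LPS/IFN-γ cells than in IL-4 cells (-0.50 ± 0.11, adjusted p = 0.00171) and than in TGF-β cells (-0.58 ± 0.11, adjusted p = 0.000445), and both calls were lost under median scaling (-0.48 and -0.43, adjusted p = 0.0758 and 0.101). IL-4 minus TGF-β was -0.08 with an interval of -0.31 to 0.15 (adjusted p = 0.653). The order from high to low was TGF-β, IL-4, untreated and LPS/IFN-γ, with no difference called between TGF-β and IL-4 or between LPS/IFN-γ and untreated.

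Tlr13, the endosomal receptor that in mice recognises bacterial ribosomal RNA, fell with LPS/IFN-γ on both of its probes. On the probe with the highest mean, the log2 signal was 10.26, 10.45 and 10.10 on the IL-4 arrays, 9.98, 9.53 and 7.42 on the LPS/IFN-γ arrays, 10.93, 10.60 and 10.82 on the TGF-β arrays, and 10.53, 10.65 and 10.84 at the lowest, median and highest of the untreated arrays. All LPS/IFN-γ arrays lay below all untreated arrays, but the third lay far below the other two. LPS/IFN-γ minus untreated was -1.70 ± 0.37, 0.307 of the untreated signal (adjusted p = 0.00131). Within chips the difference was -0.63, -1.14 and -3.31, and without the third LPS/IFN-γ array it was -0.93 ± 0.13 (adjusted p = 6.54e-05).

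The other Tlr13 probe gave a log2 signal of 7.47, 7.80 and 5.73 on the LPS/IFN-γ arrays, against 8.23, 8.61 and 8.69 at the lowest, median and highest of the untreated arrays. Of the LPS/IFN-γ arrays 2 detected this probe, as did all untreated arrays, and its difference was -1.56 ± 0.31 (adjusted p = 0.000622). Within chips it was -0.76, -0.84 and -2.87. The third LPS/IFN-γ array did not detect the probe, and its 5.73 lay below the lowest signal above background there (5.84). The size of the fall therefore rests in part on a value that is not a measured level. IL-4 minus untreated was -0.40 ± 0.37 on the first probe, with all IL-4 arrays below all untreated arrays (adjusted p = 0.538), and the adjusted p was 0.0334 without the third LPS/IFN-γ array. On the other probe it was -0.45 ± 0.31 (adjusted p = 0.385), and the IL-4 and untreated arrays overlapped. TGF-β minus untreated on the first probe was 0.10 with a 95% confidence interval of -0.68 to 0.89 (adjusted p = 0.864). The Tlr13 window at chrX:106143025-106143324 (plus strand, GRCm38.p6, RefSeq) is shown because both probes of this gene fell, and it held 1 PU.1 core at -83, in capitals.
Tlr13: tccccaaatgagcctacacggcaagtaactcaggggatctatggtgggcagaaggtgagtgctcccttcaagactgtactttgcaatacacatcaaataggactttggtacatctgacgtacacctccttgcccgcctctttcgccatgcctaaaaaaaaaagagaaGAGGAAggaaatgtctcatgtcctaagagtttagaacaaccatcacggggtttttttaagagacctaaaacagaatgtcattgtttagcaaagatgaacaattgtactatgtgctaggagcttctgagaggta

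Between treatments, Tlr13 was lower in LPS/IFN-γ cells than in IL-4 cells (-1.30 ± 0.42, adjusted p = 0.0210) and than in TGF-β cells (-1.80 ± 0.42, adjusted p = 0.00241). Without the third LPS/IFN-γ array these differences were -0.52 (adjusted p = 0.0113) and -1.03 (adjusted p = 5.55e-05). The difference from IL-4 cells also lost its call without IL-4 array 2 (-1.21, adjusted p = 0.0640), without the filter on dim probes (adjusted p = 0.0530) and with only these 2 groups fitted (adjusted p = 0.114). IL-4 minus TGF-β was -0.50 with an interval of -1.41 to 0.40 (adjusted p = 0.430), and passed without the third LPS/IFN-γ array (adjusted p = 0.0104). Mean Tlr13 levels ran TGF-β, untreated, IL-4 and LPS/IFN-γ from high to low, and of these neighbours only LPS/IFN-γ and IL-4 passed the test.

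**Figure D3:**
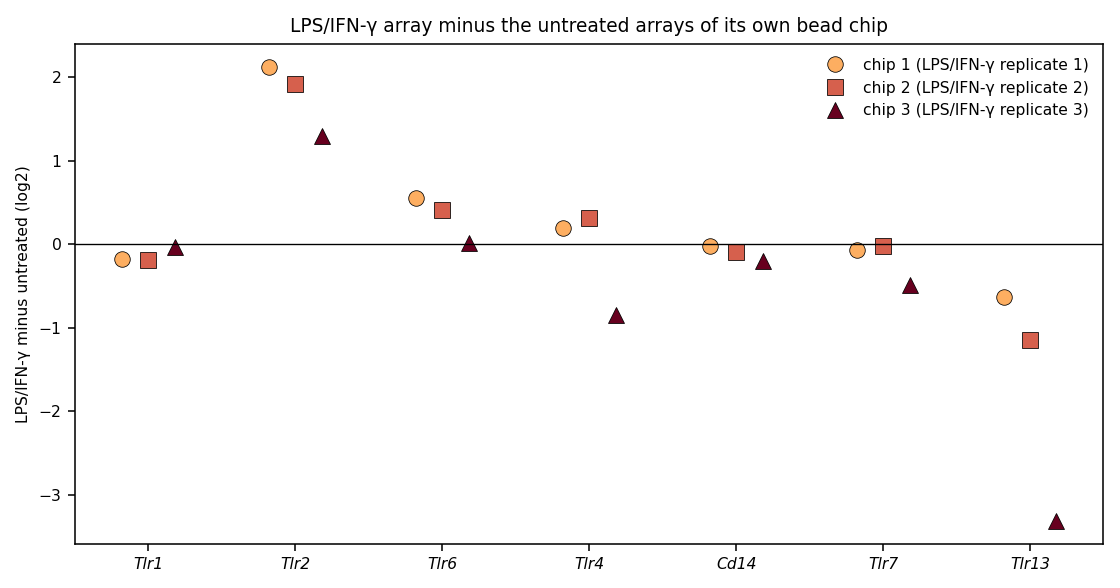
Log2 difference of the LPS/IFN-γ array from the mean of the untreated arrays on its own bead chip (vertical axis) for each tested gene, with 1 symbol per chip. Tlr2 was at 2.13, 1.93 and 1.30, while Tlr13 was at -0.63, -1.14 and -3.31 and Tlr4 at 0.19, 0.32 and -0.85, so that chip 3 was lowest for all genes shown but Tlr1.

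Tlr3, the receptor for double-stranded RNA, Tlr8, which senses single-stranded RNA in humans, and Tlr9, the receptor for unmethylated CpG DNA, were not detected by the filter. The Tlr3 probe had signals of 124.3 to 148.6 over the 15 arrays, above background on 0 of them, and its lowest detection p was 0.293. Of the 2 Tlr9 probes, 1 ranged from 116.0 to 149.0 (lowest detection p 0.150) and the other from 121.1 to 160.1 (lowest detection p 0.0459). The Tlr8 probe came closest to detection on the third IL-4 array (detection p 0.0118). Its signals were 144.7 to 163.9 on the IL-4 arrays and 119.4 to 137.2 on the untreated arrays, which do not overlap, and as it was above background on 0 arrays no fold or test is given. Another Tlr4 probe was above background on 0 arrays (lowest detection p 0.0406) and a further Tlr6 probe on 1 array, the second LPS/IFN-γ array (detection p 0.00641). Low signal limits what these probes can show, and expression of their genes below the background of the array was not tested.

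Set between treatments, 2 of the 7 genes (Tlr2 and Cd14) were higher and 3 (Tlr1, Tlr7 and Tlr13) lower in LPS/IFN-γ than in IL-4 cells, against 20.6% and 28.2% of all genes. In LPS/IFN-γ against TGF-β cells, 4 (Tlr1, Tlr4, Tlr6 and Cd14) were higher and 2 (Tlr7 and Tlr13) lower, against 22.6% and 31.3% of all genes. In IL-4 against TGF-β cells, 3 (Tlr1, Tlr4 and Tlr6) were higher and 2 (Tlr2 and Cd14) lower, against 12.6% and 15.3% of all genes. The 3 treatments share their untreated arrays, so their differences from untreated cells are not independent of each other.

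Across the 15 arrays the 7 genes did not follow 1 common pattern. Pearson's r, given as a description over arrays that share treatments and chips, was 0.75 between Tlr4 and Tlr1 and 0.74 between Tlr6 and Tlr4. For Tlr2 and its partners, r was -0.72 with Tlr1 and -0.28 with Tlr6. Tlr13 and Tlr7 had r = 0.64, and Cd14 and Tlr7 had r = -0.61. Of genes outside the family, the most alike over the 15 arrays were AU020206 (r = 0.968) and B3gnt3 (0.965) for Tlr2, Clec7a (0.954) and Rhobtb1 (0.940) for Tlr1, and Ncf4 (0.864) and Zfp574 (0.857) for Tlr6. Cyb5a (0.916) and Acy1 (0.915) were most like Tlr4, Poc1b (0.941) and Bola1 (0.923) most like Cd14, Sla (0.966) and Atp6v1e1 (0.962) most like Tlr7, and Srsf5 (0.968) and Ap5b1 (0.967) most like Tlr13. Clec7a encodes the fungal glucan receptor dectin-1, and its mean log2 signal was 7.95 with IL-4, 6.74 with LPS/IFN-γ, 5.56 with TGF-β and 7.07 in untreated cells. Its TGF-β mean lay below the lowest log2 signal of a probe above background on each TGF-β array (5.61 to 5.78), so it is not a measured level.

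Among the accessory proteins and chaperones that let these receptors bind ligand and reach endosomes, 15 of 22 listed genes were tested. With IL-4, 0 of 15 were called (median log2 difference 0.04). With LPS/IFN-γ, 2 were higher and 5 lower (median -0.07), and with TGF-β, 7 were higher and 0 lower (median 0.23). Over all genes, the shares called higher and lower were 4.89% and 5.27% with IL-4 (median -0.02), 20.9% and 33.2% with LPS/IFN-γ (median -0.08) and 18.8% and 17.9% with TGF-β (median -0.00). Ly96, which holds LPS on Tlr4, was 0.26 ± 0.09 above untreated with IL-4 (adjusted p = 0.0790), -0.01 ± 0.09 with LPS/IFN-γ (adjusted p = 0.960) and 0.46 ± 0.09 with TGF-β (adjusted p = 0.00105, and 0.25 with an adjusted p of 0.255 under median scaling). The IL-4 difference of Ly96 stayed uncalled in 25 of 30 alternatives and passed in the others, such as without TGF-β array 2 (0.26, adjusted p = 0.0389). Its lowest adjusted p over the alternatives was 0.0168. Ctss, an endosomal protease that trims nucleic acid receptors, rose by 1.41 ± 0.16 with LPS/IFN-γ (adjusted p = 3.83e-06) and by 0.87 ± 0.16 with TGF-β (adjusted p = 0.000717).

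Cd180, a Tlr4 homologue that restrains LPS signalling in macrophages, fell with LPS/IFN-γ (-0.85 ± 0.13, adjusted p = 9.09e-05). Its other probes gave -0.76 (adjusted p = 0.00174) and -0.25 (adjusted p = 0.237). With TGF-β, Cd180 rose by 0.41 ± 0.13 (adjusted p = 0.0286), but its other probes gave 0.08 (adjusted p = 0.752) and 0.60 (adjusted p = 0.0143), and the call was lost without TGF-β array 1 (0.38), TGF-β array 2 (0.37) or untreated array 6 (0.38), under median scaling (0.18) and without the filter on dim probes. Trem2, a lipid receptor of microglia, was -0.71 ± 0.09 with LPS/IFN-γ (adjusted p = 1.69e-05) and 0.61 ± 0.09 with TGF-β (adjusted p = 0.000138). Unc93b1, which carries nucleic acid receptors to endosomes, rose by 0.49 ± 0.08 with LPS/IFN-γ (adjusted p = 0.000173), and its other probe gave 0.34 (adjusted p = 0.0629). With TGF-β, Unc93b1 was -0.19 ± 0.08 (adjusted p = 0.0839). It stayed uncalled in 24 of 30 alternatives and passed in the others, such as without TGF-β array 2 (-0.29, adjusted p = 0.0192). The lowest adjusted p over the alternatives was 0.0119. The Cd180 partner Ly86 was not tested.

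Of 26 listed adaptors and proximal kinases, 21 were tested. With IL-4, 0 were called (median -0.02), with LPS/IFN-γ 8 were higher and 7 lower (median 0.03), and with TGF-β 3 were higher and 1 lower (median 0.04). Of all genes, 4.89% were higher and 5.27% lower with IL-4, 20.9% and 33.2% with LPS/IFN-γ, and 18.8% and 17.9% with TGF-β. The adaptor Myd88, used by all of these receptors except Tlr3, fell slightly with LPS/IFN-γ (-0.32 ± 0.07, adjusted p = 0.00105), and its other probe gave -0.24 (adjusted p = 0.175). Ticam1, the adaptor of Tlr3 and Tlr4, was -0.03 ± 0.09 with LPS/IFN-γ (adjusted p = 0.797). Ticam2, which links Tlr4 to Ticam1, rose by 2.69 ± 0.10 (adjusted p = 1.41e-11), and the kinase Map3k8 rose by 2.08 ± 0.17 (adjusted p = 1.23e-07). The tyrosine kinase Btk (-0.82 ± 0.10, adjusted p = 5.00e-06) and the ubiquitin-conjugating enzyme Ube2n (-0.75 ± 0.14, adjusted p = 0.000308) fell most with LPS/IFN-γ. The other Ube2n probe gave -0.55 (adjusted p = 0.0266).

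With TGF-β, the kinase Irak2 rose by 1.36 ± 0.10 (adjusted p = 1.04e-07), and of its other probes 1 was called higher (adjusted p = 2.89e-07) and 1 gave 0.35 (adjusted p = 0.145). The ubiquitin ligase Traf6 rose by 0.39 ± 0.09 with TGF-β (adjusted p = 0.00357), which its other probes did not repeat at 0.03 (adjusted p = 0.908) and 0.25 (adjusted p = 0.0810), and which was lost under median scaling (0.15). Ube2n fell with TGF-β (-0.39 ± 0.14, adjusted p = 0.0399), a call lost without any 1 TGF-β array or untreated array 1, 2, 3, 4 or 6, with differences of -0.41 to -0.34. Its other probe gave -0.32 and was not called (adjusted p = 0.224).

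Of 28 listed negative regulators, 20 were tested, and 13 were higher and 3 lower with LPS/IFN-γ (median 0.50), against 20.9% and 33.2% of all genes (median -0.08). With IL-4, 1 was higher and 3 lower (median -0.01), and with TGF-β 5 were higher and 3 lower (median -0.00), against 4.89% and 5.27% of all genes with IL-4 and 18.8% and 17.9% with TGF-β. With LPS/IFN-γ, Nfkbia, the inhibitor that holds NF-κB in the cytoplasm, rose by 3.48 ± 0.11 (adjusted p = 1.86e-12). Tnfaip3 (A20), a deubiquitinase that limits NF-κB signalling, rose by 2.89 ± 0.13 (adjusted p = 8.00e-11), and Irak3 (IRAK-M), which blocks the Myd88 kinases, rose by 1.61 ± 0.13 (adjusted p = 1.13e-07). The adaptor Dok2 (-1.29 ± 0.09, adjusted p = 2.52e-08) and the phosphatase Inpp5d (SHIP1; -1.24 ± 0.13, adjusted p = 1.31e-06) fell.

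With TGF-β, Tnfaip3 rose by 0.80 ± 0.13 (adjusted p = 0.000229) and Inpp5d by 0.61 ± 0.13 (adjusted p = 0.00185). The Inpp5d call was lost under median scaling (0.37, adjusted p = 0.182). Dok2 fell with TGF-β too (-0.96 ± 0.09, adjusted p = 2.25e-06), as did the protease Usp18 (-0.33 ± 0.08, adjusted p = 0.00537), whose other probe gave -0.27 (adjusted p = 0.238). With IL-4, the inhibitory receptor Pilra fell (-0.84 ± 0.17, adjusted p = 0.00651). Atf3, a stress-induced repressor, rose with IL-4 by 0.49 ± 0.14 (adjusted p = 0.0345), a call lost without any 1 IL-4 array or any of untreated arrays 1 to 5, with differences of 0.43 to 0.56. Nfkbia fell by 0.39 with IL-4 (adjusted p = 0.0462), but its other probe gave 0.04 (adjusted p = 0.891). The Nfkbia call was lost without any 1 IL-4 array, LPS/IFN-γ array 2, TGF-β array 1 or 3, or any of untreated arrays 1 to 5, with differences of -0.47 to -0.34, and with the bead chip as a fixed block (-0.40, adjusted p = 0.0603), cyclic loess (-0.35), median scaling and no filter on dim probes.

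Of 18 listed transcription factors downstream of the receptors, 15 were tested. With LPS/IFN-γ, 11 were higher and 4 lower (median 1.00, unchanged with Irf7 at its bound), against 20.9% and 33.2% of all genes (median -0.08). With IL-4 2 were higher and 1 lower (median 0.03), and with TGF-β 3 were higher and 1 lower (median 0.11), against 4.89% and 5.27% of all genes with IL-4 and 18.8% and 17.9% with TGF-β. Irf1, an interferon-induced factor, rose by 5.60 ± 0.10 with LPS/IFN-γ (adjusted p = 8.99e-16), and its other probes gave 2.80 to 5.80, all called. Irf7, the master factor of type I interferon induction, had a mean log2 signal of 9.16 in LPS/IFN-γ cells and 4.66 in untreated cells. All 3 LPS/IFN-γ arrays but 0 of 6 untreated arrays detected it. Irf7 was thus at least 11.1-fold higher with LPS/IFN-γ, with the untreated side set at the lowest signal above background on each array. It passed the filter on dim probes through the LPS/IFN-γ arrays alone, so its place among the 11 genes called higher is not independent of the filter. Fos, an immediate-early factor, fell by 1.83 with LPS/IFN-γ (SE 0.33, adjusted p = 0.000304), and by 2.54 without the third LPS/IFN-γ array. Its partner Jun fell by 0.70 (SE 0.12, adjusted p = 0.000208).

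With TGF-β, Fos rose by 1.94 ± 0.33 (adjusted p = 0.000376) and Junb by 1.02 ± 0.15 (adjusted p = 8.14e-05). Spi1 (PU.1), the lineage factor of macrophages, fell (-0.33 ± 0.10, adjusted p = 0.0151), a call lost without TGF-β array 2 (-0.25, adjusted p = 0.0967). With IL-4, Cebpb fell (-0.31 ± 0.06, adjusted p = 0.00523), a call lost under median scaling (-0.33, adjusted p = 0.196). Nfkb2 rose by 0.39 ± 0.11 with IL-4 (adjusted p = 0.0330), a call lost without IL-4 array 1 or 3 or untreated array 2, 3 or 4, with differences of 0.27 to 0.44. Of the Toll-like receptors outside the members, Tlr11 and Tlr12 were above background on 0 arrays, and the flagellin receptor Tlr5 was detected on 1 of 3 IL-4 arrays, 0 of 3 LPS/IFN-γ arrays, 1 of 3 TGF-β arrays and 3 of 6 untreated arrays, so that no fold is given.

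**Figure D4:**
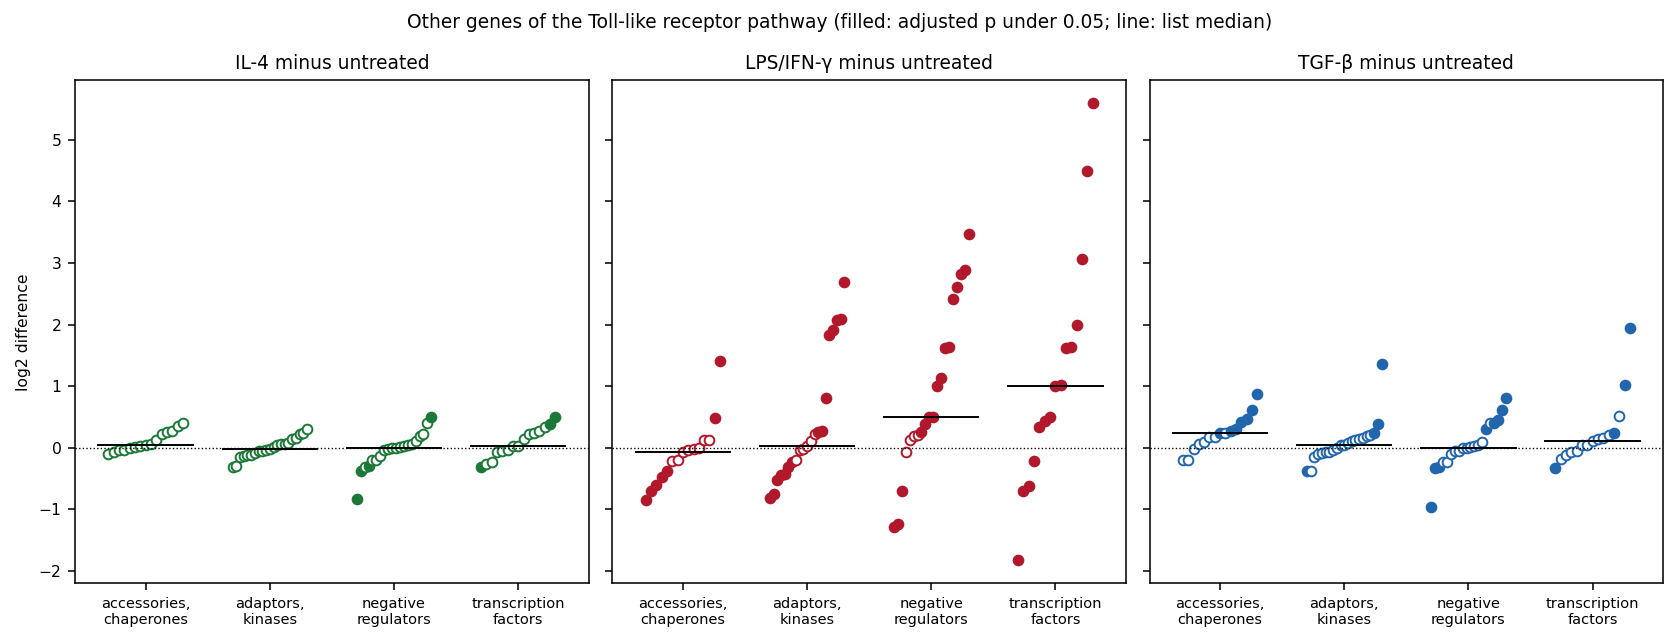
Log2 difference from untreated cells (vertical axis) of each tested gene of the 4 pathway lists with IL-4, LPS/IFN-γ and TGF-β, ordered by size within a list, with filled symbols for an adjusted p under 0.05 and a line for the list median. With LPS/IFN-γ the transcription factors had a median of 1.00 and the negative regulators of 0.50, and the accessory proteins had a median of -0.07; the fitted value of Irf7 is shown, although its fold is only a bound.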

How the data were processed

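RNA of 15 samples was hybridised to 1-colour Illumina bead arrays on 3 bead chips. The deposited table that was used holds the signal intensity of each probe and its detection p-value, per the file headers, with no normalization by the authors. A further deposited table holds log2 values of the same arrays, in which the authors' quantile-normalized signal was found to have the chip effect removed. It served as an alternative. Partek is named in the submitters' processing notes, with no version.

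Signals were background-corrected with neqc (offset 16), quantile normalized and put on the log2 scale in limma 3.58.1 under R 4.3.3. Probes with a detection p under 0.01 on at least 3 arrays were kept, which left 15434 of 45281. Group means were fitted with lmFit and eBayes over all 4 groups, with Benjamini-Hochberg adjustment over all tested probes and calls at 0.05. The probe with the highest mean stood for each gene. Bounds on a fold use, on each array, the lowest signal of a probe above background. On simulated data with 15434 probes, 95, 93 and 92 of 100 probes changed 2-fold were recovered for IL-4, LPS/IFN-γ and TGF-β, and 67, 72 and 68 of 100 changed 1.5-fold. In the platform annotation 34885 probes had 1 gene symbol, 18 several and 10378 none.

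The members were given as a list of genes. Members, pathway lists and marker lists were chosen with earlier results of these data known. From each pathway list, the text names the genes with the largest called changes in each direction, and a few fixed genes. The 30 alternatives covered background correction, scaling, filters, probe choice, chip and replicate blocks, priors, array weights and leaving out each array. A looser kappaB search was added after the data were seen. A further promoter motif is not reported here.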

Additional observations from a re-analysis of the deposited data

Results flagged for a closer look

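On the second Tlr13 probe, the first untreated array had a log2 signal of 8.23, against 8.54 on the nearest of the other 5 untreated arrays. Its gap was 0.686 of the group's range, above Dixon's 95% critical value for 6 arrays. Chance marks about 5% of groups in this way, and 9 probes were examined.

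A Tlr6 probe that failed the filter was above background on 1 array, the second LPS/IFN-γ array, with a signal of 197.4 and a detection p of 0.00641. It was above background on 0 untreated arrays.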

How the results depend on the processing

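Of 3957 single-gene results under alternatives, 3799 kept their side of the threshold, 123 lost and 33 gained a call, and 2 reversed as a call was gained or lost. The 2 were Tlr4 with LPS/IFN-γ at 0.27 without the third LPS/IFN-γ array (-0.268 to 0.265 over all arrays left out in turn), and Nfkbia with IL-4 at 0.0437 on its lowest probe. The 3799 include differences that were not called and changed sign, such as Tlr6 in LPS/IFN-γ against IL-4 (-0.11, and 0.06 without the third LPS/IFN-γ array). The cause was not tested. The 3 Tlr2 differences from untreated kept their calls under all 30 alternatives. The number of the 7 genes called with IL-4 (4) was 2 under median scaling, 2 with the replicate block and 7 when only the IL-4 and untreated groups were fitted, and 2 to 7 when 1 array was left out. Leaving out 1 array gave 2 to 4 with LPS/IFN-γ, 5 to 5 with TGF-β, 4 to 6 for LPS/IFN-γ against IL-4, 4 to 6 for LPS/IFN-γ against TGF-β and 4 to 6 for IL-4 against TGF-β. Median scaling gave 3 for LPS/IFN-γ against IL-4 (5 otherwise), and moved the median of all probes to -0.11, -0.14 and -0.20 with IL-4, LPS/IFN-γ and TGF-β.

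Over all probes, 1453 were called with IL-4, against 441 under median scaling, 577 with the replicate block and 2694 in the authors' table. With only the IL-4 and untreated groups fitted, 1878 were called. Median scaling gave 1866 in place of 3921 for IL-4 against TGF-β, and 4372 in place of 6958 for LPS/IFN-γ against IL-4. The share of higher calls was 48.9% with IL-4 (61.4% with cyclic loess, 59.3% with the replicate block), 39.1% with LPS/IFN-γ (50.1% with cyclic loess) and 47.2% with TGF-β (18.6% under median scaling). Under median scaling it was 59.8% in place of 44.4% for LPS/IFN-γ against TGF-β and 62.5% in place of 48.7% for IL-4 against TGF-β. Same-numbered arrays had deviations correlated at -0.24 to 0.34, so the numbers were not taken as pairs. The replicate block also ended the calls of Tlr6 with IL-4 and LPS/IFN-γ, Tlr7 and Cebpb with IL-4, and Cd14 in IL-4 against TGF-β (adjusted p = 0.192, 0.162, 0.117, 0.0849 and 0.0615). Signal near background limits Tlr3, Tlr8, Tlr9 and Tlr5.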
